A study of Mus musculus with 24 samples.

Results

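The genes described here serve to bring fatty acids into the heart muscle cell and burn them in its mitochondria, or act beside these steps. They are 34 genes, each taken by its symbol from the deposited table of read counts, out of 24015 genes in that table, and all 34 passed the filter on low counts that left 13816 genes for testing. RNA came from the mouse left ventricle 2, 4, 7 or 21 days after surgery, which was either transverse aortic constriction (TAC), where a band around the aortic arch makes the ventricle pump against a raised pressure, or a sham operation, with 3 libraries for each operation and day and 24 in all. The labels give the operation, the day and the tissue (heart, left ventricle) and no strain, age or sex, and nothing in them states that replicates were separate animals, so that the p-values measure the spread between these libraries. Libraries held 10.7 to 17.6 × 1000000 counted reads. The comparison asks how RNA for fatty acid use differs between pressure-overloaded and sham hearts at each day.

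The adult heart takes most of its energy from fatty acids. Lipoprotein lipase frees them from circulating triglyceride, CD36 and the fatty acid transport proteins bring them across the membrane, and FABP3 carries them through the cytosol. An acyl-CoA synthetase activates them, the carnitine shuttle (CPT1, the carrier SLC25A20 and CPT2) passes them into the mitochondrion, and there each turn of beta-oxidation removes an acetyl-CoA through a dehydrogenase, a hydratase, a second dehydrogenase and a thiolase. Malonyl-CoA, made by the acetyl-CoA carboxylase ACACB and removed by MLYCD, blocks CPT1 and so sets entry. Many of these genes are known targets of the nuclear receptor PPAR alpha and of estrogen-related receptors with their coactivator PGC-1 alpha.

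Promoter sequences were searched for AGGTCA, since binding sites of these receptors are built from copies of it. RefSeq windows on GRCm38.p6 that run from 250 bases before to 50 bases after a start site were found for 29 of the 34 genes, 34 windows in all. The motif AGGTCA, searched on both strands, lay in 8 of the 34 windows (23.5%), against 16.3% of all 32851 windows of the same length (300 bases). These 8 windows belong to 7 of the 29 genes, so most of the genes did not have it there. The paired motif, which is 2 copies of AGGTCA with 1 base between them, and the extended motif TCAAGGTCA lay in 0 of the 34 windows, against 0.0396% and 0.423% of all. The GC box GGGCGG lay in 24 of the 34 windows (70.6%), against 35.7% of all. These are matches of letters in a short window and no measure of binding. The stretches around AGGTCA upstream of the start site are shown for genes of uptake, the shuttle, 2 acyl-CoA dehydrogenases, the hydratase step and the lipid droplet, 5′ to 3′ along the gene's strand, with the motif, or its reverse complement TGACCT, in capitals.
Cd36, chr5:17836092-17836146, minus strand: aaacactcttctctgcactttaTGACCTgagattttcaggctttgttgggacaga
Cpt1a, chr19:3323180-3323239, plus strand: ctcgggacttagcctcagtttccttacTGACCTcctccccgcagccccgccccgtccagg
Acadm, chr3:153944860-153944893, minus strand: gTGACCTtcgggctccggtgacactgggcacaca
Acadvl, chr11:70015483-70015542, minus strand: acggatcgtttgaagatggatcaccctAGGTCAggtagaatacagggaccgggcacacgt
Echs1, chr7:140116472-140116531, minus strand: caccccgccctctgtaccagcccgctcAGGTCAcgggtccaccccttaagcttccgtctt
Plin5, chr17:56117686-56117745, minus strand: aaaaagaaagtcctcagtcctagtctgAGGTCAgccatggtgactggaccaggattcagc
Hadha and Hadhb, which encode the alpha and beta subunits of the mitochondrial trifunctional protein, start 273 bases apart on opposite strands of chromosome 5, so that they share 1 stretch of upstream sequence. The bases before the start of Hadhb are shown because both genes of this pair are described below, with the GC boxes GGGCGG in capitals.
Hadhb, chr5:30155003-30155252, plus strand: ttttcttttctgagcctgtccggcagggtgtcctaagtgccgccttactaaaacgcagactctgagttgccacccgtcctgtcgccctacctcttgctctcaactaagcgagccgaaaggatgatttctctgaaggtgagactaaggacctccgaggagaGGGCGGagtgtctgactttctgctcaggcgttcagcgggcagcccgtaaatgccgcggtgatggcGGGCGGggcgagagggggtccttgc

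In sham hearts the levels spanned a wide range. Levels are compared between genes only on the authors' RPKM, reads per kilobase of transcript scaled to library depth, as mean ± SD over the 12 sham libraries. Fabp3 stood first with 8410 ± 639 RPKM, and Lpl followed with 1300.0 ± 117. The next places went to Etfb (675 ± 40.0), Ech1 (636 ± 50.3), Acot13 (614 ± 55.2) and Acadl (582 ± 30.8 RPKM), and each of these neighbours lay within 1 SD of the next. The lowest levels were those of Lipe (13.9 ± 2.57), Acaa1a (11.7 ± 0.994) and Acot1 (8.24 ± 2.65 RPKM). The muscle form Cpt1b (186 ± 11.5) was above the liver form Cpt1a (26.0 ± 3.55 RPKM), as is known of the adult heart. In the sham hearts 0 of the 34 genes passed a test for differences over the 4 days, where 0.68% of all genes tested did (edgeR's quasi-likelihood test, lowest adjusted p = 0.574, 0 at an unadjusted p under 0.05). This test took its spread from the TAC libraries too, and these could vary more. For Lpl at day 2 the SD was 87.0 RPKM in sham and 366 in TAC. Differences between sham days may therefore have been missed. Sham Lpl ran from 1370 to 1520 RPKM at day 2 and from 1100 to 1210 at day 21, and sham Acads from 36.6 to 41.8 and from 47.1 to 49.2.

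After TAC these genes were lower together. Each effect is a log2 fold change, TAC against sham, with its standard error (SE) after the ± sign, and single libraries are in normalised CPM, counts per 1000000 reads. At day 2 none of the 34 passed edgeR's quasi-likelihood test, at day 4 23 had fallen, at day 7 31 and at day 21 2, and none was higher at any day. Of all genes tested, 0.854%, 10.1%, 10% and 0.47% were called lower at these days, and 3.73%, 14.4%, 13.1% and 0.622% higher. The median log2 fold change over the 34 genes was -0.35, -0.61, -0.70 and -0.36 at days 2, 4, 7 and 21, beside -0.00, -0.01, 0.00 and 0.01 over all genes tested. At day 2 the 34 estimates were all below 0, 9 of them at an unadjusted p under 0.05, and DESeq2 called 0 as well. At day 21 31 estimates were below 0, 19 of them at an unadjusted p under 0.05. Every TAC library lay below every sham library of the day for 18, 27, 32 and 23 of the 34 genes, where 11.2%, 19.6%, 19.4% and 10.5% of all genes tested did. On the mean of the 4 days 31 genes fell, against 21.4% of all genes tested, and the median was -0.51. The row of Cpt1b in the count table is not a measure of that gene (below). Without it 22 genes had fallen at day 4 and 31 at day 7.

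**Figure D1:**
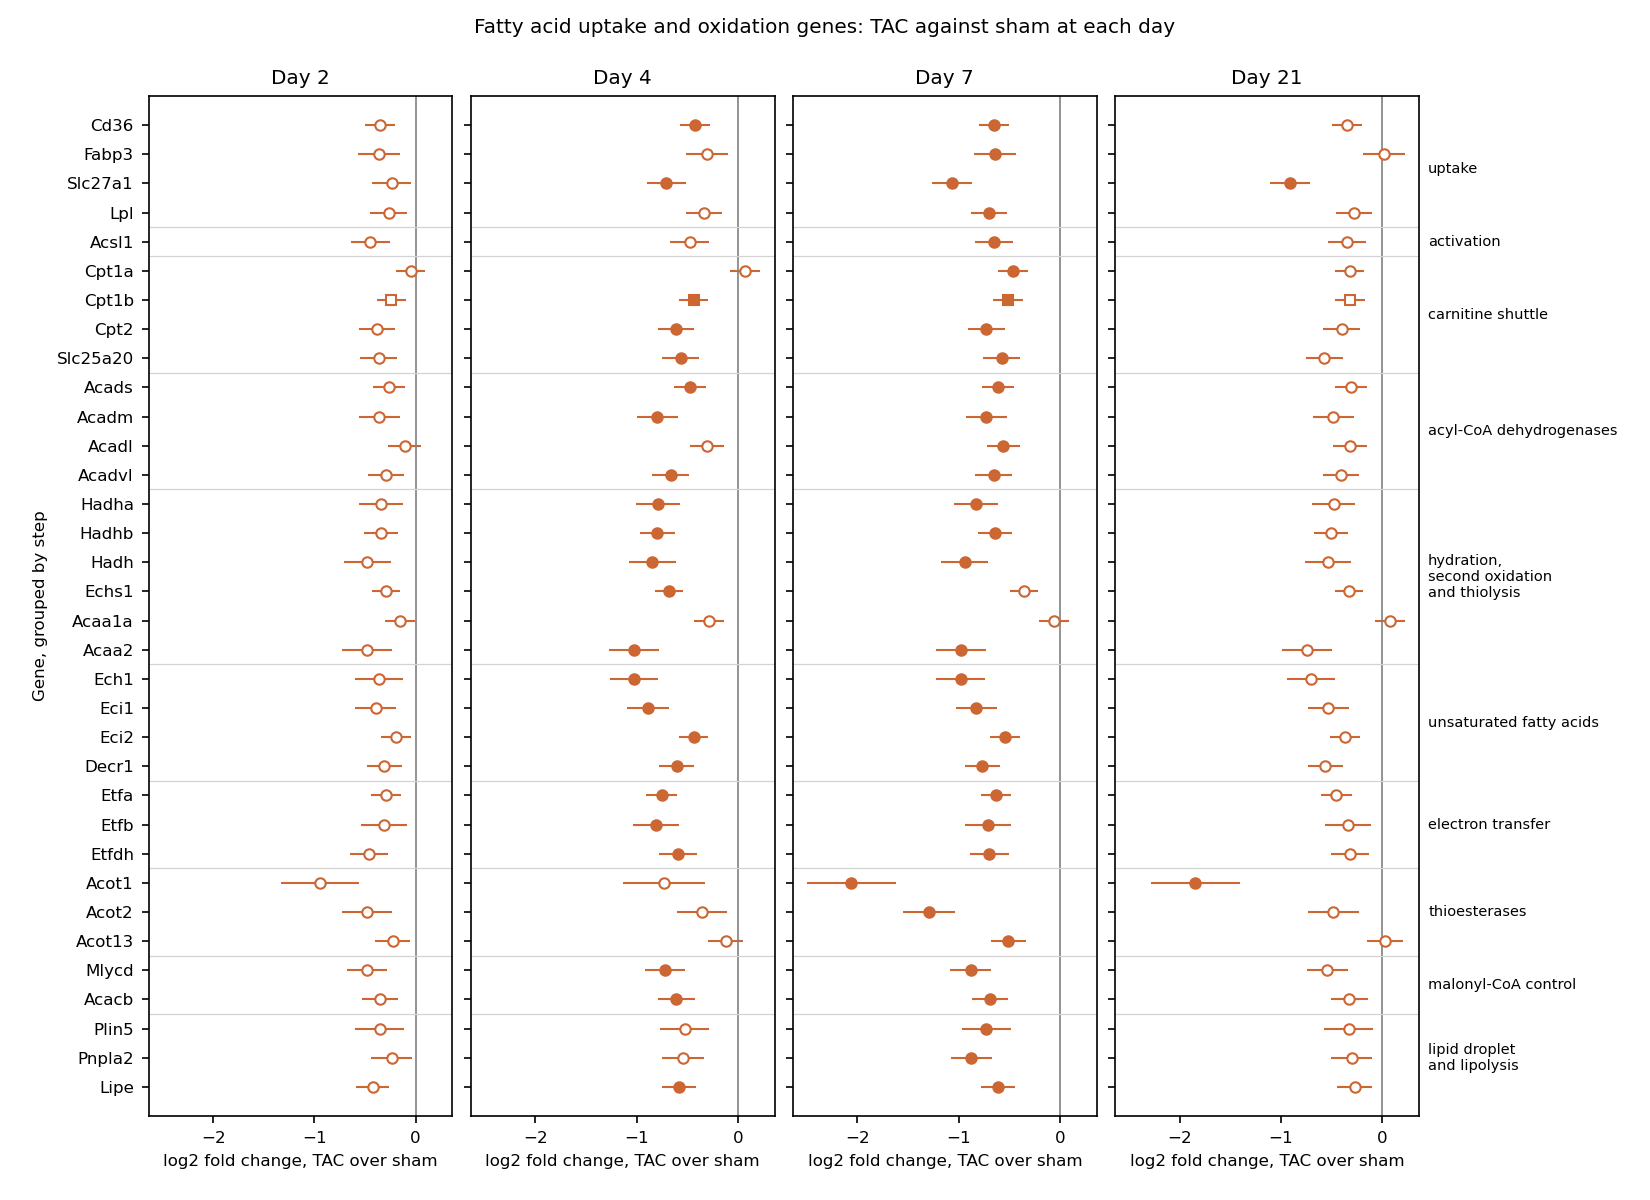
Log2 fold change of TAC over sham (horizontal axis) for each of the 34 genes (rows, grouped by step) at days 2, 4, 7 and 21, with bars of 1 SE. Filled symbols passed the test at an adjusted p under 0.05; Cpt1b, drawn as squares, comes from the authors' RPKM tested with limma and all other genes from edgeR on counts. Filled symbols are most frequent at days 4 and 7, and Acot1 lies farthest to the left at days 7 and 21.

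The libraries of a group were not alike. TAC replicate 1 of day 2 stood near the sham hearts: over the 33 genes other than Cpt1b its median log2 ratio to the sham mean of its day was -0.11, while those of the other 11 TAC libraries ran from -1.19 to -0.19 and those of the sham libraries from -0.10 to 0.13. The lowest were replicate 1 of day 7 (-1.19) and replicate 3 of day 4 (-0.998). All 33 genes were below the lowest sham library of the day in TAC replicate 2 of day 2 and in replicates 3 of days 4 and 21. Without TAC replicate 1 of day 2, 4 of the 34 passed the test at that day, Cd36, Lpl, Echs1 and Etfa, and the median was -0.48. Without TAC replicate 3 of day 4 the count of that day was 6 and without sham replicate 3 of day 4 it was 14. Without that sham library the share of all genes called lower at day 4 went from 10.1% to 6.05%. Without TAC replicate 1 of day 7 the count of that day was 8 and without sham replicate 3 of day 7 it was 15. At day 21 the count was 0 without any 1 of the libraries other than TAC replicate 2, whose absence gave 5. For the other libraries left out, the shares of all genes called are not given here. A smaller count therefore need not be particular to the 34 genes. Whichever single library of the day was left out, Hadhb, Echs1, Acaa2, Ech1, Eci1 and Etfa were still called at day 4 and Cd36, Slc27a1, Ech1, Decr1, Acot1, Acot2, Mlycd and Pnpla2 at day 7. On the mean of the 4 days 30 to 32 genes fell without any 1 library.

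The libraries with over 30 CPM of Myl7, an atrial myosin light chain, were sham replicates 2 and 3 of day 2, TAC replicate 1 of day 7 and sham replicate 2 of day 21. Without these 4 libraries, 0, 22, 3 and 0 of the 34 genes were called at days 2, 4, 7 and 21, with medians of -0.35, -0.60, -0.50 and -0.39, and 30 on the mean of the days. That leaves 1 sham library at day 2, which is assumed to vary like the other groups. The shares of all genes called without these 4 libraries are not given here. Sham replicate 3 of day 4 held 13.6 CPM of the fat cell gene Adipoq, at most 1.40 CPM in the other 23 libraries, and 14.4 CPM of Ucp1, the uncoupling protein of brown fat, at most 0.0605 elsewhere. Its levels of Lpl (5760 CPM) and Cd36 (1660 CPM) lay within the range of the other 23 libraries and that of Lipe (48.2 CPM) above it.

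**Figure D2:**
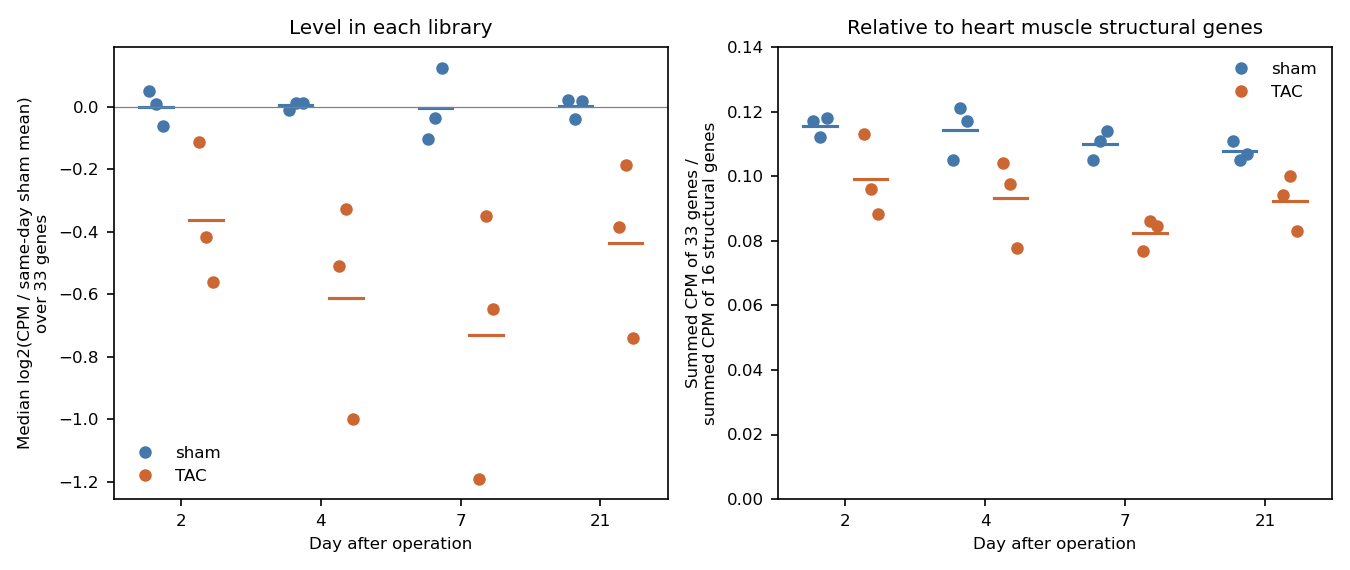
Left, the median over 33 genes (Cpt1b left out) of log2(CPM / mean of the same day's sham libraries), 1 point per library and a bar at the group mean; right, the summed CPM of the 33 genes divided by the summed CPM of 16 structural genes of heart muscle. TAC replicate 1 of day 2 lies nearest to the sham libraries on the left, and on the right 11 of 12 TAC libraries lie below 0.105, the lowest sham value.

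In tissue RNA, fewer heart muscle cells and less RNA per cell cannot be told apart. The summed CPM of 16 structural genes of heart muscle, such as Myh6, Tnnt2 and Ttn, ran from 194000 to 218000 in sham and from 137000 to 210000 in TAC libraries. The sum over the 33 genes divided by it ran from 0.105 to 0.121 in the sham and from 0.0768 to 0.113 in the TAC libraries, and 11 of the 12 TAC libraries lay below the lowest sham library. Of the 16 structural genes 4 were called lower at day 4 and 5 at day 7 (25% and 31.2%), against 10.1% and 10% of all genes tested. Their sum is thus no fixed measure of heart muscle cells. Fibroblast markers (12 of 12 measured) summed to 1540 to 2100 CPM in sham and 1560 to 10900 in TAC libraries, and macrophage markers (13 of 14 tested) to 243 to 370 and 268 to 903. Of the fibroblast markers 8 and of the macrophage markers 13 were called higher at day 4. The part of these cells in the lower levels was not tested. Of 14 fat cell markers 5 were tested, and 1 of these was called at day 4 (lower). Their sum, 320 to 535 CPM in sham and 237 to 482 in TAC libraries, was mostly Fabp4 (190 to 419 CPM), while Adipoq and Plin1 were at most 1.4 and 0.564 CPM outside sham replicate 3 of day 4.

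All 4 uptake genes had fallen at day 7, and 2 of them, Cd36 and Slc27a1, at day 4. Cd36, the fatty acid translocase, was at 1420, 1460 and 1610 CPM in the sham and 812, 1030 and 1010 CPM in the TAC libraries of day 7, a log2 fold change of -0.65 ± 0.15 (adjusted p = 0.00472). The groups did not overlap, and Cd36 had fallen at day 4 too (-0.42 ± 0.15, adjusted p = 0.0424). Fabp3, the cytosolic carrier and the most abundant of the genes, was at 3350, 3780 and 3860 CPM in the sham and 1500, 2910 and 2620 CPM in the TAC libraries of day 7 (-0.64 ± 0.21, adjusted p = 0.0309). At day 21 its TAC libraries held 3270, 3890 and 2710 CPM beside 3480, 3160 and 3100 in sham, with overlapping groups (0.02 ± 0.21, adjusted p = 0.972). Lpl, lipoprotein lipase, was at 5800, 5880 and 5760 CPM in the sham and 3090, 4140 and 3490 CPM in the TAC libraries of day 7 (-0.70 ± 0.18, adjusted p = 0.00998). It was at -0.27, -0.34 and -0.28 at days 2, 4 and 21 and passed the test at none of these.

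Slc27a1, the fatty acid transport protein FATP1, had the smallest p of the uptake genes on the mean of the days and, of all 34, the smallest p in the test over all days at once. Its sham libraries held 57.1, 69.5 and 64.8 CPM at day 2 and its TAC libraries 59.8, 54.5 and 48.3 CPM, so that the groups overlapped. At day 4 the values were 76.6, 62.1 and 68.4 CPM in sham and 53.1, 48.4 and 26 CPM in TAC, and at day 7 67.7, 72.2 and 78.4 CPM against 29.7, 42.4 and 32.4 CPM. At day 21 they were 73.5, 89.1 and 74.6 CPM in sham and 42.6, 51.5 and 32.4 CPM in TAC. From day 4 on the 3 TAC libraries were below the 3 sham libraries. The log2 fold change went from -0.24 ± 0.19 at day 2 to -0.70 ± 0.20, -1.07 ± 0.20 and -0.91 ± 0.20 at days 4, 7 and 21 (edgeR's adjusted p = 0.531, 0.0135, 0.00118 and 0.0316). The difference between days did not pass edgeR's test over all genes (adjusted p = 0.353). The call of day 21 was lost without any 1 library of that day other than TAC replicate 2, with the 6 libraries of the day alone and without the libraries over 30 CPM of Myl7.

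Acsl1, the main acyl-CoA synthetase of heart muscle, was the only gene of the activation step among the 34. It was at 932, 943 and 1070 CPM in the sham and 432, 808 and 636 CPM in the TAC libraries of day 7, with no overlap (-0.65 ± 0.19, adjusted p = 0.0196). At days 2, 4 and 21 its log2 fold changes were -0.45, -0.48 and -0.35 and did not pass (adjusted p = 0.192, 0.0717 and 0.356).

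In the carnitine shuttle the inner enzyme and the carrier fell at days 4 and 7 and the liver form of CPT1 at day 7. Cpt2, the inner carnitine palmitoyltransferase, was at 294, 302 and 316 CPM in the sham and 207, 245 and 146 CPM in the TAC libraries of day 4 (-0.61 ± 0.18, adjusted p = 0.0185). On day 7 Cpt2 was at 271, 294 and 356 CPM in sham and 132, 237 and 187 CPM in TAC (-0.73 ± 0.18, adjusted p = 0.00841). Slc25a20, the carnitine-acylcarnitine carrier, fell at both days (-0.57 ± 0.18 and -0.58 ± 0.18). Cpt1a, the liver form of the outer enzyme, was at 97.4, 84.6 and 110 CPM in the sham and 123, 102 and 82.7 CPM in the TAC libraries of day 4, with overlapping groups and an estimate above 0 (0.07 ± 0.15, adjusted p = 0.749). At day 7 it was at 97.9, 131 and 138 CPM in sham and 82.8, 96.7 and 86.8 CPM in TAC, and it had fallen (-0.46 ± 0.15, adjusted p = 0.0274).

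Cpt1b, the muscle form of CPT1 and the one that controls entry in the adult heart, needs the other table. Its row in the count table held 1.31 to 3.5 CPM before TMM scaling and 1.23 to 3.51 after it, while the authors' RPKM of the same gene ran from 103 to 204. Mean CPM divided by mean RPKM, which approximates a gene's length in kilobases, was 0.0127 for Cpt1b and 0.424 to 8 for the other 33 genes. Chkb, the next gene upstream, had 0.209 to 1.36 CPM before scaling and 11 to 19.7 RPKM, and the row of the read-through gene ChkbCpt1b held 0 counts in every library. In GENCODE M21 on GRCm38 Cpt1b (chr15:89416405-89425863, minus strand) lies wholly under the gene Gm44502 (chr15:89416405-89429696), and Chkb (chr15:89426360-89429908) overlaps it in part. Whether this overlap led to the low counts was not tested.

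On the RPKM scale Cpt1b fell at days 4 and 7. It was at 174, 166 and 193 RPKM in the sham and 135, 159 and 104 RPKM in the TAC libraries of day 4, and at 177, 177 and 200 against 103, 159 and 131 RPKM at day 7. The groups did not overlap at any of the 4 days. On log2(RPKM + 0.5), limma gave log2 fold changes of -0.24 ± 0.15, -0.44 ± 0.15, -0.51 ± 0.15 and -0.32 ± 0.15 at days 2, 4, 7 and 21 (adjusted p = 0.407, 0.0379, 0.0193 and 0.282). By this test, run over 14307 genes, 22 and 32 of the 34 genes had fallen at days 4 and 7. The shares of all genes called lower by it are not given here. The ratio of Cpt1a to Cpt1b, which is higher in the fetal than in the adult heart, was compared as a log2 ratio per library. From the RPKM with no pseudocount, a setting chosen after seeing the data, it was -2.97 ± 0.0862 (SD, n = 3) in sham and -2.45 ± 0.261 in TAC at day 4, a difference of 0.52 (exact two-sided permutation p = 0.1, the smallest that 3 against 3 libraries allow). Differences at days 2, 7 and 21 were 0.20, 0.08 and -0.02. Over the 4 days the mean difference was 0.20 (exact permutation p = 0.0196 over 160000 arrangements, 0.0241 adjusted over 2 ratios). With the count row in place of the RPKM it was 0.09 (exact permutation p = 0.586).

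**Figure D3:**
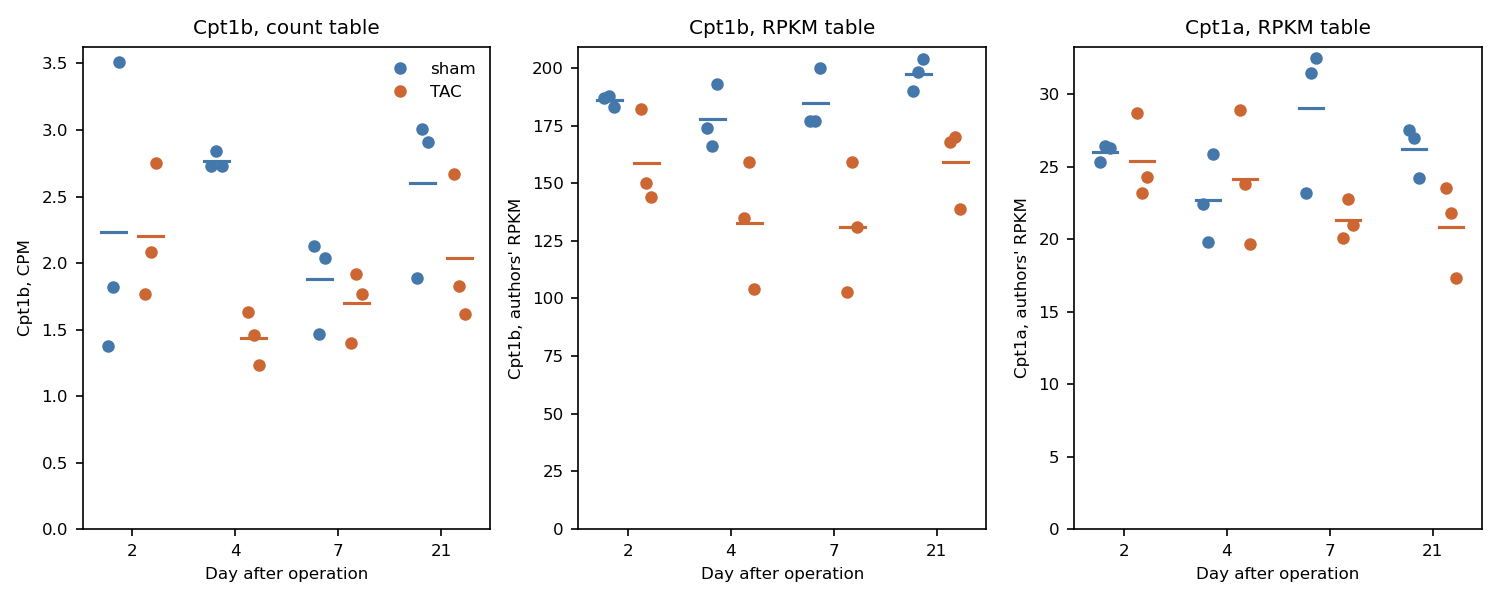
Level of Cpt1b in the count table (left, CPM) and in the authors' RPKM table (middle), and of Cpt1a in the RPKM table (right), 1 point per library with a bar at the group mean, by day. The count row of Cpt1b, in normalised CPM, runs from 1.23 to 3.51 while its RPKM runs from 103 to 204, and at each day the TAC libraries lie below the sham libraries in the RPKM of Cpt1b.

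The acyl-CoA dehydrogenases, which open each turn of beta-oxidation on chains of different length, fell in 3 of 4 cases at day 4 and in all 4 at day 7. Acadm, for medium chains, was at 860, 889 and 838 CPM in the sham and 523, 602 and 369 CPM in the TAC libraries of day 4 (-0.79 ± 0.20, adjusted p = 0.00825). At day 7 it was at 772, 799 and 848 CPM in sham and 333, 661 and 468 CPM in TAC (-0.73 ± 0.20, adjusted p = 0.0154). The groups were apart at both days. Acadvl, for very long chains, was at 508, 474 and 550 CPM in the sham and 231, 410 and 331 CPM in the TAC libraries of day 7 (-0.66 ± 0.18), with the same log2 fold change at day 4. Acadl, for long chains, had overlapping groups at day 4 (969, 1090 and 1150 CPM in sham, 973, 965 and 659 CPM in TAC; -0.31 ± 0.17, adjusted p = 0.183). At day 7 Acadl was at 1000, 1170 and 1140 CPM in sham and 540, 881 and 827 CPM in TAC (-0.56 ± 0.17, adjusted p = 0.0213). Acads, for short chains, fell by 0.47 and 0.61 on the log2 scale at days 4 and 7.

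Of the 6 genes of hydration, second oxidation and thiolysis 5 fell at day 4 and 4 at day 7. Hadha was at 1600, 1510 and 1430 CPM in the sham and 966, 1070 and 604 CPM in the TAC libraries of day 4 (-0.79 ± 0.22, adjusted p = 0.0121). Hadhb, its divergent neighbour, was at 960, 1110 and 1070 CPM in sham and 635, 699 and 481 CPM in TAC on that day (-0.79 ± 0.17, adjusted p = 0.0028). At day 7 the pair stood at -0.83 ± 0.22 and -0.64 ± 0.17 and at day 21 at -0.48 and -0.50, neither past the test. Acaa2, the mitochondrial thiolase, fell by 1.02 and 0.97 on the log2 scale at days 4 and 7, to 49.2% and 50.9% of the sham mean. Hadh, the short-chain hydroxyacyl-CoA dehydrogenase, fell to 55.8% and 52.1%. Echs1, the short-chain hydratase, was called at day 4 (-0.68 ± 0.14, adjusted p = 0.00192) and not at day 7 (-0.35 ± 0.14, adjusted p = 0.0677). Acaa1a, a thiolase of peroxisomes, passed the test at no day: at day 7 its sham libraries held 13.7, 14.6 and 17.4 CPM and its TAC libraries 13.9, 15.6 and 14.6 CPM (-0.06 ± 0.15, adjusted p = 0.815).

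All 4 genes for the double bonds of unsaturated fatty acids fell at days 4 and 7. Ech1, a dienoyl-CoA isomerase, was at 603, 639 and 602 CPM in the sham and 310, 394 and 204 CPM in the TAC libraries of day 4 (-1.02 ± 0.24, adjusted p = 0.00477). On day 7 Ech1 was at 498, 509 and 618 CPM in sham and 163, 375 and 287 CPM in TAC (-0.98 ± 0.24, adjusted p = 0.00734). Eci1, an enoyl-CoA isomerase, was at 202, 207 and 203 CPM in the sham and 117, 134 and 80.3 CPM in the TAC libraries of day 4 (-0.89 ± 0.20). The sham libraries of Eci1 varied little, from 188 to 207 CPM over all days, and each TAC library of each day lay below the sham libraries of that day. Decr1, the dienoyl-CoA reductase, and Eci2, a second isomerase, fell by 0.77 and 0.54 on the log2 scale at day 7.

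The genes that pass the electrons on to the respiratory chain fell together. Etfa and Etfb encode the 2 subunits of the electron transfer flavoprotein, and Etfdh the dehydrogenase that reoxidises it. Etfa was at 337, 376 and 378 CPM in the sham and 212, 246 and 189 CPM in the TAC libraries of day 4 (-0.75 ± 0.15, adjusted p = 0.00181). Etfb fell by 0.81 and Etfdh by 0.59 on the log2 scale at that day. At day 7 Etfdh was at 496, 530 and 587 CPM in sham and 225, 421 and 349 CPM in TAC, with no overlap (-0.70 ± 0.19, adjusted p = 0.0139). All 3 stood between -0.45 and -0.32 at day 21 and passed the test there in 0 cases.

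Of the acyl-CoA thioesterases, which release free acid and coenzyme A from acyl-CoA, 0 of 3 were called at day 4 and all 3 at day 7. Acot1, the cytosolic form, had the largest log2 fold change of the 34 genes at days 2, 7 and 21. It was at 7.82, 8.91 and 12.7 CPM in the sham and 1.28, 3.05 and 2.79 CPM in the TAC libraries of day 7 (-2.06 ± 0.44, adjusted p = 0.00314), and at 10.8, 8.37 and 11.2 CPM against 2.14, 4.71 and 1.69 CPM at day 21 (-1.85 ± 0.44, adjusted p = 0.0456). The call of Acot1 at day 21 was lost in the same settings as that of Slc27a1, and with limma voom and limma on RPKM. With the replicate number as a block, the day 21 calls of Acot1 and Slc27a1 were not both kept. Acot2, the mitochondrial form, was at 118, 106 and 124 CPM in the sham and 110, 110 and 52.1 CPM in the TAC libraries of day 4, with overlap (-0.36 ± 0.25, adjusted p = 0.304). At day 7 it was at 99.9, 143 and 144 CPM in sham and 34.1, 68.4 and 55.6 CPM in TAC (-1.29 ± 0.25, adjusted p = 0.00163). The step of Acot2 from day 4 to day 7 had an unadjusted p of 0.0144 and did not pass over all genes (adjusted p = 0.503). The genes lie side by side (GRCm38 chr12:83987861-83993873 for Acot2 and chr12:84009490-84018371 for Acot1, GENCODE M21), and 23.7% of the stretches of 50 bases in the longest Acot1 transcript also occur in Acot2, so that how reads were divided between them is uncertain. Acot13 was called at day 7 only (-0.51 ± 0.18, adjusted p = 0.0423).

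**Figure D4:**
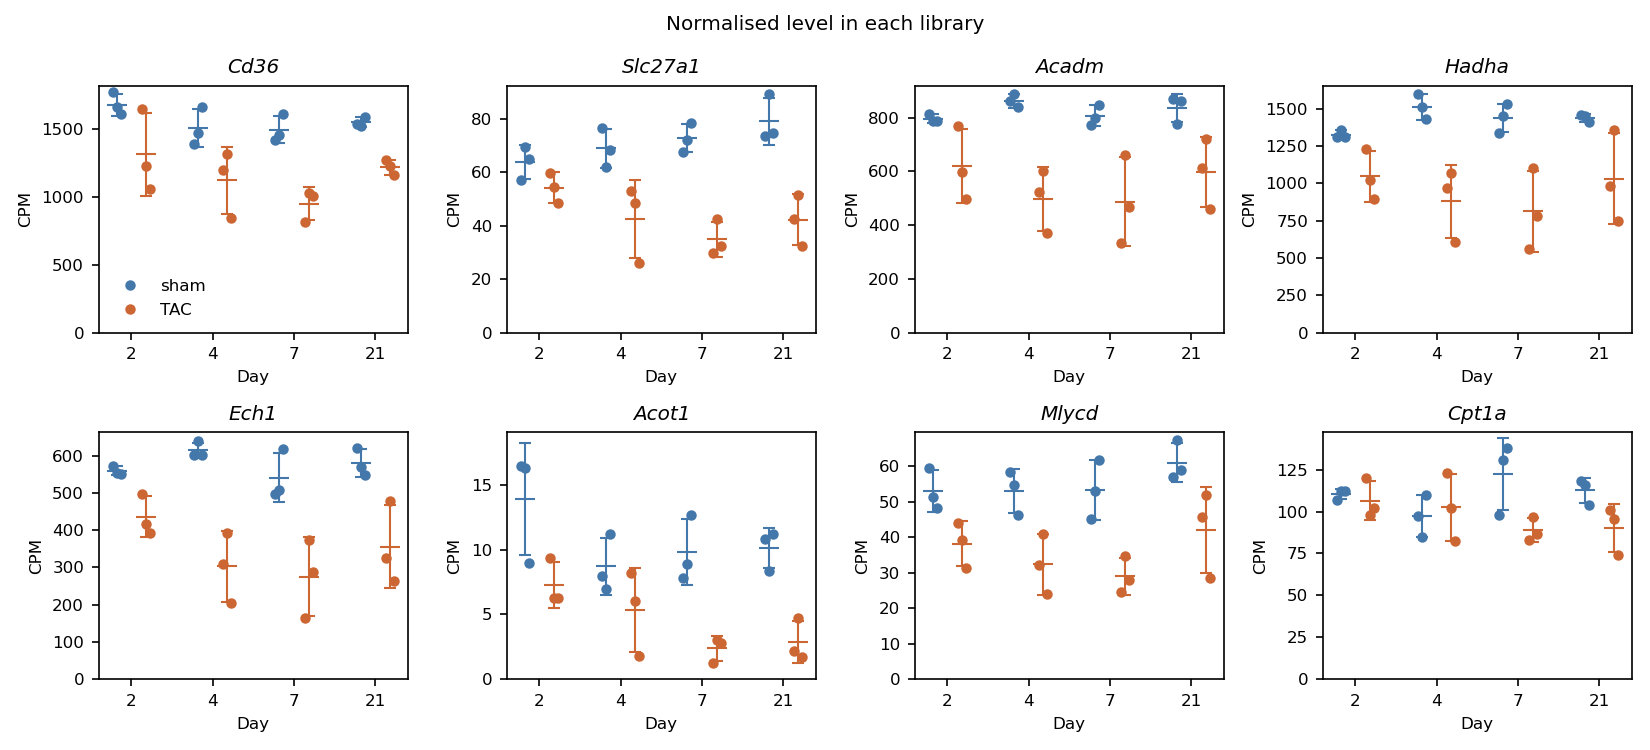
CPM in each library for 8 of the genes by day, sham and TAC side by side, with group means and SD (n = 3). Acot1 and Slc27a1 have TAC libraries far below sham at days 7 and 21, and Cpt1a overlaps between the groups at days 2 and 4.

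Both genes that set malonyl-CoA fell at days 4 and 7. Mlycd, malonyl-CoA decarboxylase, was at 58.5, 54.7 and 46.3 CPM in the sham and 32.3, 41 and 23.9 CPM in the TAC libraries of day 4 (-0.72 ± 0.20, adjusted p = 0.0135). On day 7 Mlycd was at 45.1, 53.2 and 61.8 CPM in sham and 24.5, 34.6 and 27.9 CPM in TAC (-0.88 ± 0.20, adjusted p = 0.00506). Acacb, the carboxylase at the mitochondrial surface, was at 525, 503 and 591 CPM in the sham and 261, 434 and 308 CPM in the TAC libraries of day 7 (-0.69 ± 0.18, adjusted p = 0.0106). The log2 ratio of Acaca, the cytosolic carboxylase of fatty acid synthesis, to Acacb went from -4.28 ± 0.174 in sham to -3.21 ± 0.325 in TAC libraries of day 7 (SD, n = 3), a difference of 1.06 (exact permutation p = 0.1). Over the 4 days the mean difference was 0.51 (exact permutation p = 0.0335, 0.067 adjusted over 2 ratios). Without sham replicate 3 of day 4, which held 141 CPM of Acaca where the other 23 libraries held at most 36.9, it was 0.71 (exact permutation p = 3.75e-05, adjusted 7.5e-05).

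The genes of the lipid droplet and its lipases reached the test mainly at day 7. Plin5, the perilipin of heart muscle, was at 40.8, 44 and 56 CPM in the sham and 17.8, 39.3 and 28.4 CPM in the TAC libraries of day 7 (-0.73 ± 0.24, adjusted p = 0.0372). Pnpla2, adipose triglyceride lipase, was at 379, 405 and 468 CPM in sham and 174, 295 and 215 CPM in TAC (-0.87 ± 0.21, adjusted p = 0.00588). The groups were apart for both. Lipe, hormone-sensitive lipase, was called at day 4 (-0.58 ± 0.17, adjusted p = 0.0157) and day 7 (-0.61 ± 0.17). Its highest sham value of day 4, 48.2 CPM, was that of the library with fat cell RNA.

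The effect of TAC differed between days in 0 of the 34 genes, whether tested over all days at once or between pairs of days (day 4 against 2, day 7 against 4, day 21 against 7 and day 21 against 2; lowest adjusted p = 0.353, for Slc27a1; 1, 2, 3, 3 and 1 genes at an unadjusted p under 0.05). Of all genes tested 0.369% differed over all days at once. Between pairs of days 0% were called either way for day 4 against 2, 0.00724% lower and 0.0434% higher for day 7 against 4, 0.0362% lower and 0.029% higher for day 21 against 7, and 0% lower and 0.0145% higher for day 21 against 2. So the counts of 0, 23, 31 and 2 do not by themselves show that the effect grew and receded. The largest falls on the mean of the days were those of Acot1 (-1.39 ± 0.21), Acaa2 (-0.81 ± 0.12), Ech1 (-0.77 ± 0.12) and Slc27a1 (-0.73 ± 0.10), and the smallest estimates were those of Acaa1a (-0.11 ± 0.07), Cpt1a (-0.19 ± 0.07) and Acot13 (-0.21 ± 0.09), of which Cpt1a alone passed.

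Other genes of fatty acid handling come from lists chosen by function, with earlier results of these data known. They are given beside the shares of all genes tested, 10.1% lower and 14.4% higher at day 4 and 10% and 13.1% at day 7. Day 4 counts are also given without sham replicate 3 of that day, the library with fat cell RNA, a setting chosen after seeing the data, where 6.05% of all genes were lower and 10.7% higher. A list drawn as other mitochondrial oxidation genes held 18 tested genes of acyl-CoA metabolism, not all of them mitochondrial or of oxidation. Of these, 11 fell and 2 rose at day 4 (8 and 1 without that library) and 12 fell and 1 rose at day 7. Among them were Acadsb, the dehydrogenase of short branched chains (-0.56 ± 0.08 at day 4, adjusted p = 0.000281), and Pcca, a subunit of propionyl-CoA carboxylase (-0.64 ± 0.11, adjusted p = 0.000845), which had also fallen at day 2 (-0.41 ± 0.11, adjusted p = 0.042). Acot7, another thioesterase, fell by 0.50 on the log2 scale at day 4. Those that rose were Cpt1c, the brain form of CPT1 (1.004 ± 0.33 at day 4 and 0.99 ± 0.33 at day 7), and Acot9 at day 4 (0.65 ± 0.20). Levels of Cpt1c were low, 2.73, 2.27 and 1.77 CPM in the sham and 5.56, 3.96 and 4.06 CPM in the TAC libraries of day 4. Of 4 tested genes of carnitine supply, 2, 3 and 1 fell at days 4, 7 and 21 (1 at day 4 without that library). Slc22a5, the carnitine transporter of the cell membrane, was called at all 3 days (-0.79 ± 0.17, -0.59 ± 0.16 and -0.74 ± 0.16; adjusted p = 0.00244, 0.0153 and 0.0318). Crat, carnitine acetyltransferase, was at -0.74 ± 0.19 and Aldh9a1, of carnitine synthesis, at -0.70 ± 0.18 at day 7.

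Of 16 tested genes of peroxisomal oxidation 2 fell at day 4 (12.5%, against 10.1% of all genes) and 5 at day 7. Without sham replicate 3 of day 4 the day 4 count was again 2, against 6.05% of all genes. With all libraries the medians of the list were -0.19 and -0.32 at days 4 and 7. Ehhadh, the peroxisomal bifunctional enzyme, fell at day 4 (-1.004 ± 0.26, adjusted p = 0.00827), Phyh, phytanoyl-CoA hydroxylase, at days 4 and 7 (-0.67 ± 0.15 and -0.61 ± 0.15), and Abcd3, a peroxisomal fatty acid transporter, at day 7 (-0.56 ± 0.14). The difference between this list and the 34 genes was not tested. Of 21 other genes of uptake and activation 2 fell and 1 rose at day 4 and 3 fell and 3 rose at day 7. These shares are near those of all genes or below them, and 0 were called at day 4 without sham replicate 3. Vldlr, the very low density lipoprotein receptor, and Acss1, the mitochondrial acetyl-CoA synthetase, fell at both days (-0.59 ± 0.17 and -0.82 ± 0.24 at day 7). Fabp5 (1.16 ± 0.24, adjusted p = 0.00241), Acsl5 (0.65 ± 0.15) and Cav1, caveolin (0.61 ± 0.11), rose at day 7. Slc27a6 was called higher at day 4 (2.82 ± 1.02, adjusted p = 0.0483) from levels of at most 1.02 CPM.

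Of fatty acid synthesis, 9 of 17 tested genes were lower and 3 higher at day 4, and 3 were lower and 4 higher at day 7. Without sham replicate 3 of day 4 the count of that day was 1 lower (Mcat) and 4 higher. That library held 1290 CPM of Scd1 and 631 of Fasn, where the other 23 held at most 48.9 and 68.4. It was also above the other 23 libraries in Elovl6 (43 against at most 6.4 CPM), Acaca (141 against 36.9), Acly (112 against 44) and Thrsp (66.5 against 32.7). Genes that rose were the elongase Elovl1 (0.64 ± 0.15, 0.68 ± 0.15 and 0.63 ± 0.15 at days 2, 4 and 7), the desaturases Fads2 (0.99 ± 0.21 and 1.004 ± 0.22 at days 4 and 7) and Fads1 (0.51 ± 0.11 and 0.37 ± 0.11), and Elovl5 at day 7 (0.42 ± 0.10). Of 21 tested genes of triglyceride synthesis and storage 6 fell at day 4 (2 without sham replicate 3), and 8 fell and 1 rose at day 7. Fitm1 and Fitm2, which help form lipid droplets, and Plin4 fell at both days (-0.60 ± 0.17, -0.72 ± 0.19 and -0.68 ± 0.15 at day 7), and Lpin2, a phosphatidate phosphatase, rose at day 7 (0.61 ± 0.13).

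Of 20 transcriptional regulators 8 fell at day 4, and 5 fell and 1 rose at day 7. Without sham replicate 3 of day 4, 5 fell at that day, and Esrrg and Rxrg lost their call. Esrrg, an estrogen-related receptor, fell at both days (-0.43 ± 0.13 and -0.37 ± 0.13). Rxra and Rxrg, retinoid X receptors that pair with PPAR alpha, fell at day 4 (-0.48 ± 0.12 and -0.69 ± 0.23). Ppara itself fell at day 4 (-0.60, adjusted p = 0.02) and not at day 7 (-0.29, adjusted p = 0.251), and Ppargc1a, which encodes PGC-1 alpha, fell at both (-0.61 and -0.64). These genes, for the receptor and coactivator introduced above, were named outside the rule, after their values were seen. Their part in the lower levels was not tested. Of the 20 regulators 12 were not called at day 4 and 14 at day 7. Hif1a, the hypoxia factor, rose at day 7 (0.41 ± 0.14, adjusted p = 0.0395).

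**Figure D5:**
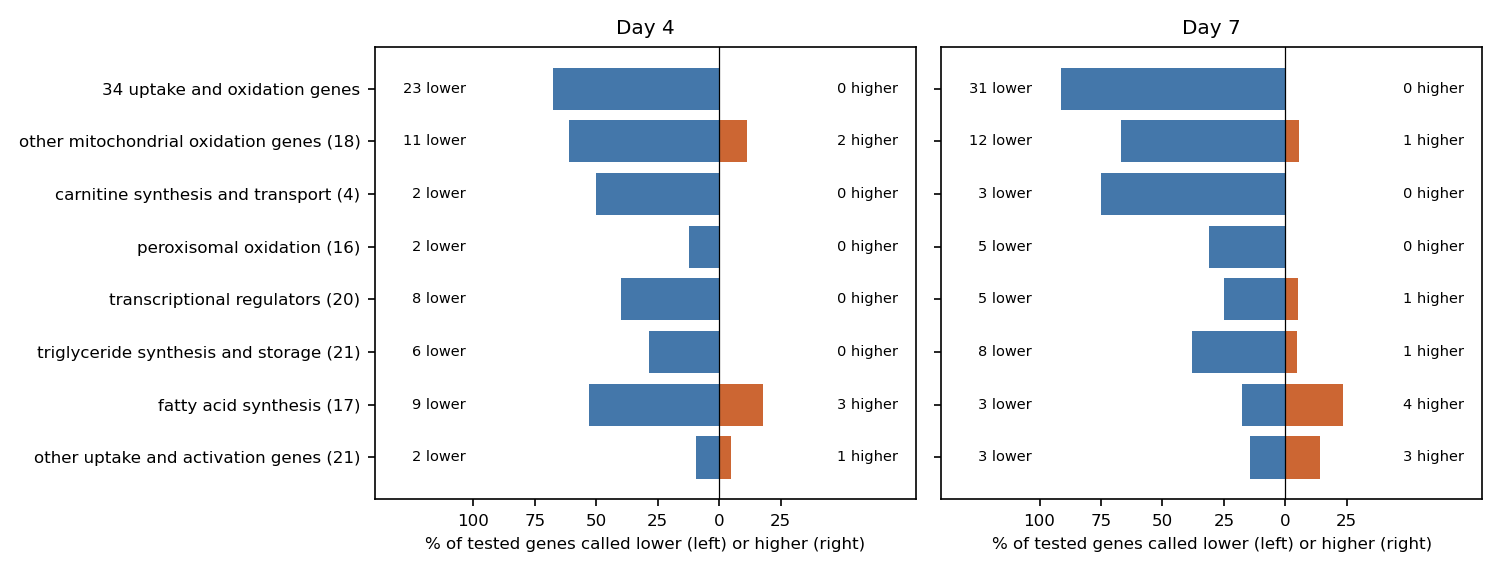
Share of tested genes called lower (left of 0) or higher (right of 0) at days 4 and 7 for the 34 genes and for 7 lists of related genes, with the number tested in each list in parentheses and the counts at the sides. The 34 genes have 23 and 31 lower and 0 higher, while fatty acid synthesis has 9 and 3 lower and 3 and 4 higher; its 9 at day 4 are 1 without sham replicate 3 of that day.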

How the data were processed

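Left ventricle RNA of the mouse heart was sequenced on an Illumina NextSeq500 after amplification with a NuGEN Ovation kit, per the labels' protocols. The deposited tables hold whole-number counts of reads for each gene, without normalization, and the authors' RPKM values for the same 24 libraries. The submitters' processing notes name TopHat, DESeq and hg19, a human build. Not given in the sources used here are the mouse build, the annotation, the counting tool and its use of strand.

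The 34 genes and the related lists were chosen with earlier results of these data known. Counts were tested with edgeR 4.0.16 (quasi-likelihood test, TMM scaling, filterByExpr, 8 group means, 16 residual degrees of freedom) in R 4.3.3, with Benjamini-Hochberg adjustment over 13816 genes and a threshold of 0.05. A p given with a fold change comes from this test unless another is named. Standard errors are the log2 fold change divided by the square root of F. RPKM were tested with limma 3.58.1 on log2(RPKM + 0.5), which understates the change of low genes, over 14307 genes at 0.5 RPKM or more in 3 or more libraries. Isoform ratios used exact two-sided permutations of libraries within days. Tables and drawings used Python 3.11.15, numpy 2.4.6 and pandas 2.3.3.

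All 34 genes are accounted for. Values per library are given for genes fixed by name for each step and for those with the smallest p per step or over all days, and up to 3 genes per related list with the smallest mean p, plus any called against the majority of the list, are named. On data simulated from these libraries, 70.7%, 70%, 78.8% and 68.4% of 2-fold changes and 41.8%, 24%, 37.4% and 39% of 1.5-fold changes were found at days 2, 4, 7 and 21. Each simulation changed far fewer genes than were called in the real data at days 4 and 7, so its adjusted threshold was stricter there. Simulated mean levels and spread were the same at every day, so the shares do not show how sensitivity differs between the days. Alternatives were other scalings, filters, DESeq2 1.42.0, limma voom, RPKM, a replicate block, the libraries of 1 day alone, and leaving libraries out. The counts without the Cpt1b row, the list counts without sham replicate 3 of day 4 and the RPKM ratio with no pseudocount were chosen after seeing the data.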

Additional observations from a re-analysis of the deposited data

How the results depend on the processing

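Under the 9 other settings of scaling, filter, test and library choice, the count of the 34 genes called lower was 0 at day 2 and 22 to 25 at day 4; the setting without the Myl7 libraries left 1 sham library at day 2. At day 7 it was 23 with the 6 libraries of the day alone, 3 without the 4 libraries over 30 CPM of Myl7 and 31 or 32 otherwise. At day 21, against 2 with all libraries, it was 1 with limma voom, 1 with limma on RPKM, 0 without the Myl7 libraries and 0 with the 6 libraries of the day alone; the cause was not tested, beyond fewer libraries in the last pair. With the replicate number as a block the count at day 21 was 1 as well. Leaving out 1 library of the day at a time gave 0 to 4 at day 2, 6 to 25 at day 4, 8 to 32 at day 7 and 0 to 5 at day 21, and 30 to 32 on the mean of the days. Apart from that without sham replicate 3 of day 4, the shares of all genes called under these settings are not given.

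The log2 ratio of Cpt1a to Cpt1b, 0.0866 from counts, was 0.199 from RPKM with a pseudocount of 0.5 (exact permutation, adjusted p = 0.0197) and 0.196 with none, where the Cpt1b values come from the other table. That of Acaca to Acacb was 0.512 from RPKM (exact permutation, adjusted p = 0.0197) and ran from 0.406 to 0.706 when 1 library was left out. Without TAC replicate 2 of day 21 it passed too (0.545, exact permutation, adjusted p = 0.0485).

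Sham and TAC libraries share replicate numbers, but the correlations of same-numbered libraries ran from -0.202 to 0.117, so the numbers were not taken as pairs. With the replicate number as a block, 0, 24, 31 and 1 genes were called at days 2, 4, 7 and 21, and the Acaca to Acacb difference of 0.508 passed (adjusted p = 0.0469, exact permutation).

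Of 2756 single-gene values under the other settings, 84 lost and 27 gained a call, and of 3024 with 1 library left out, 218 lost and 41 gained one. A called value changed sign in 0 of them. With 3 libraries a group, changes of 1.5-fold were often missed in the simulated data, so that a gene without a call may still have changed.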
